A study of Bos taurus with 8 samples.

Results

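The RNA of LIF-treated bovine choroidal endothelial (BCE) cells was compared with that of LIF-treated bovine aortic endothelial (BAE) cells, to describe how far apart the 2 cell types stood after the same cytokine stimulus. The libraries were taken by their labels, which name the cell type and the treatment, and they were 4 of the 8 libraries of the series, with 2 of BCE cells and 2 of BAE cells. After 3 h in assay medium, both cell types received LIF at 10 ng/ml for 6 h, and the other 4 libraries came from the same cells given vehicle for 6 h. Serum made up 10% of this medium for the choroidal cells but 1% for the aortic cells, so an effect of serum cannot be told apart from one of cell type in any value given here. BCE cells had in addition been maintained with bFGF at 5 ng/ml and VEGF at 10 ng/ml, which the maintenance medium of BAE cells lacked. For their maintenance the paper also names glutamine and fibronectin-coated plates, which it does not name for BAE cells. Effects of these conditions cannot be told apart from cell type either. Each cell type was a commercial primary culture from a supplier, so the comparison is between these cultures and says nothing on the spread between animals. The labels call the 2 libraries of a group replicates, and the paper calls them biological replicates. Neither says whether they came from separate cultures, so the tests measure the spread between these libraries only.

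LIF is a cytokine of the interleukin-6 family. It binds the LIF receptor together with the shared chain gp130, activates JAK kinases and thereby the transcription factor STAT3, and is held in check by SOCS3, a STAT3 target gene that inhibits the receptor complex. Choroidal endothelium lines the dense microvascular bed beneath the retina, whereas aortic endothelium lines a large artery under high flow, and endothelial cells from different vessels keep distinct expression patterns in culture.

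The 4 LIF-treated libraries held 18600598 to 26667238 counts and detected 15236 to 15540 genes. The Pearson correlation of log2 CPM (each count scaled to the size of its library) across 13646 genes was 0.9943 within BCE cells and 0.9941 within BAE cells, and 0.8944 to 0.8968 between the cell types. Gene symbols could be paired with only 111 of the identifiers. All 111 come from genes that the study had called after LIF in BCE cells, a choice made on libraries that include the BCE libraries used here, so counts over these genes describe them and are not independent evidence. None of the 26 pan-endothelial markers listed for a check of the cell type was among the 111, nor was any of the listed mural, fibroblast, pigment epithelial or epithelial markers. The labelled cell types were therefore not checked against their defining markers here. In bulk RNA, a lower level can mean fewer cells that express a gene or less RNA per cell, which cannot be told apart.

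LIF-treated BCE and BAE cells differed in most of the genes they expressed, and most of the differences were small. Of 13217 genes tested with edgeR's quasi-likelihood test, 8451 (63.9%) had an adjusted p under 0.05. Of these, 4193 (31.7% of those tested) were higher in BCE cells and 4258 (32.2%) were lower. The genes tested include 1048 unannotated transcribed units, of which 54.7% were called, against 64.7% of the annotated genes. The CPM of the BCE and BAE libraries did not overlap for 10694 genes (80.9%). Among the genes called, the median absolute log2 fold change was 0.54. Differences of at most 0.5 on the log2 scale made up 3977 calls (47.1% of calls), and 1980 calls lay between 0.5 and 1. A difference over 2-fold was found for 2494 genes (18.9% of those tested), of which 1198 (9.06%) were higher in BCE cells and 1296 (9.81%) were lower. With a minimum of 10 counts in each of the libraries, a filter that removes genes silent in either cell type, 1608 genes passed 2-fold.

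**Figure D1:**
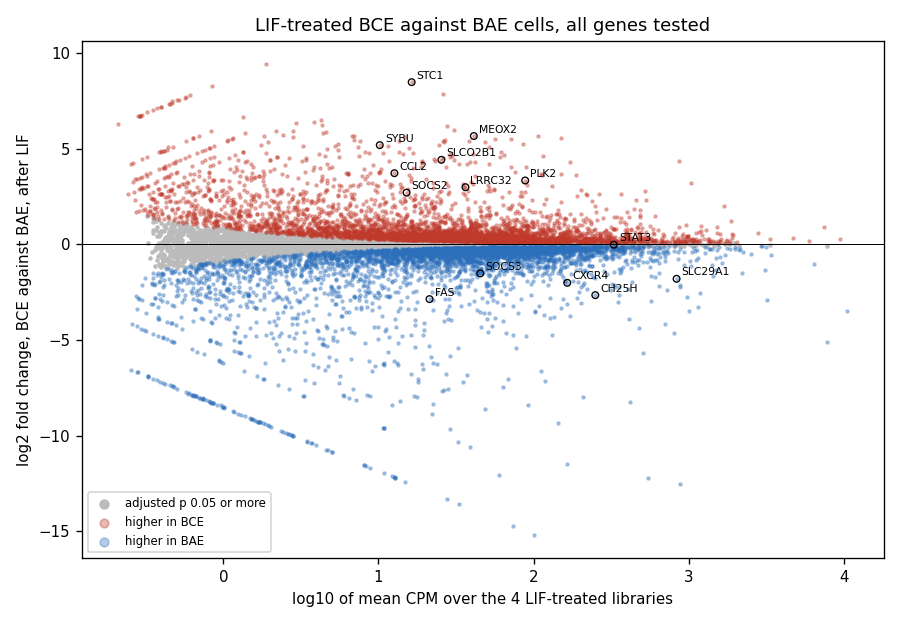
Log2 fold change of BCE against BAE cells after LIF (vertical axis) against the log10 of the mean CPM of the 4 LIF-treated libraries (horizontal axis), with one point for each of the 13217 genes tested. Red and blue points had an adjusted p under 0.05 and were higher in BCE or in BAE cells, circled genes are named, and the farthest points lie below 0, among genes close to absent from BCE cells.

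More genes were close to silent in BCE cells than in BAE cells. At least 1 CPM in both libraries of a cell type together with at most 3 counts in each library of the other type was found for 44 genes in BCE cells and for 152 genes in BAE cells. Unannotated transcribed units made up 13 of the 44 and 28 of the 152. At 10 CPM or more, the pattern held for 1 gene in BCE cells, STC1, and for 36 genes in BAE cells, none of which could be named. The identifier ENSBTAG00000032183 had no count in either BCE library and stood at 199 and 206 CPM in the BAE libraries. Against a limit of 3 counts over the BCE group, its level was at least 3050-fold higher in BAE cells. ENSBTAG00000012088 likewise had no count in BCE cells, and its 146 and 147 CPM in BAE cells were at least 2200-fold higher. Transcripts of these genes were thus plentiful in BAE cells and not measurable in LIF-treated BCE cells. They were close to absent from BCE cells with vehicle too. The vehicle means were 0.0207 CPM in BCE against 216.5 CPM in BAE cells for ENSBTAG00000032183, and 0.0751 against 145 CPM for ENSBTAG00000012088. On the other side, ENSBTAG00000014560 stood at 50.6 and 53.7 CPM in BCE cells and at 0.382 and 0.0777 CPM in BAE cells. ENSBTAG00000024272 stood at 47.9 and 61.6 CPM in BCE cells against 0.812 and 0.66 CPM in BAE cells. With vehicle, the means of ENSBTAG00000014560 and ENSBTAG00000024272 were 62.5 and 48.9 CPM in BCE cells and 0.755 and 0.805 CPM in BAE cells.

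Of the 111 named genes, 99 were called (89.2%, against 63.9% of all genes tested), 45 of them higher and 54 lower in BCE cells. The groups did not overlap for 106 of the 111 (80.9% of all genes tested). A difference over 2-fold was found for 48 (18.9% of all genes), 27 higher (9.06% of all) and 21 lower (9.81% of all) in BCE cells. Their median log2 fold change was -0.11, beside 0.00317 over all genes tested.

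**Figure D2:**
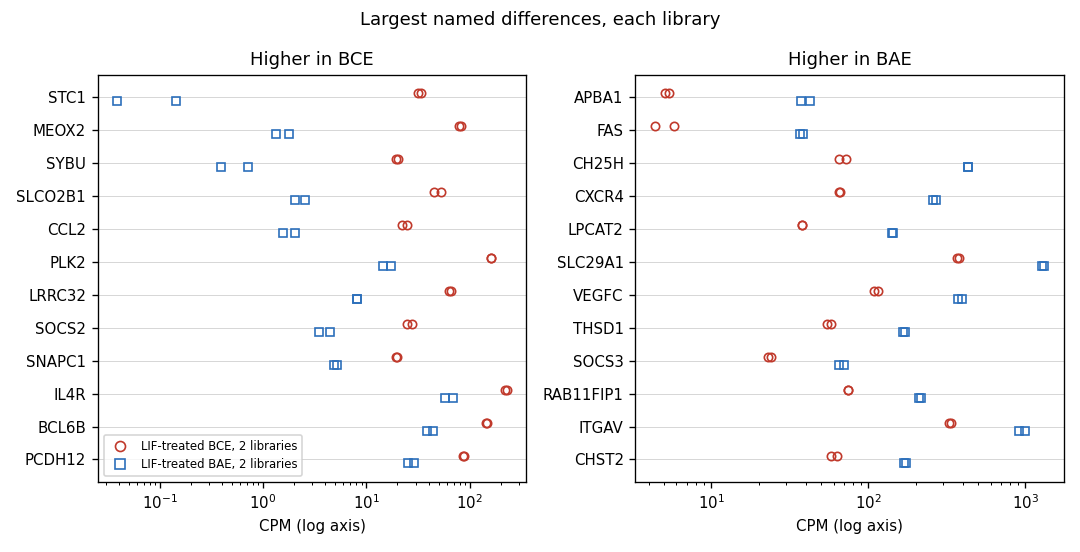
CPM on a log axis in each of the 4 LIF-treated libraries for the 12 named genes with the largest positive difference (left) and the 12 with the largest negative difference (right). Red circles are BCE libraries and blue squares BAE libraries, and for each of the 24 genes the libraries of a cell type lie together and apart from those of the other type.

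STC1 (ENSBTAG00000001687), which encodes the secreted glycoprotein stanniocalcin 1, had the largest named difference. Its level was 33.6 and 31.7 CPM in BCE cells and 0.143 and 0.0388 CPM in BAE cells, the latter from 3 counts and 1 count. The ratio of the summed counts was 382, with an exact 95% interval of 149 to 1410 that covers counting error only. MEOX2 (ENSBTAG00000003238), a homeobox transcription factor of microvascular endothelium and mesoderm, stood at 82.2 and 79.3 CPM in BCE cells and at 1.34 and 1.79 CPM in BAE cells. The log2 fold change of MEOX2 was 5.67 ± 0.11 (SE, n = 2 and 2, edgeR's quasi-likelihood test, adjusted p = 4e-27). In BAE cells STC1 did not exceed the limit of 3 counts, whereas MEOX2 did, and the groups did not overlap for either gene.

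Of 7 named cytokine receptors and members of the JAK-STAT pathway, 3 were higher in BCE cells, 2 were lower and 2 did not pass the test. Over all genes tested, 31.7% were higher and 32.2% lower. The median log2 fold change of the 7 genes was -0.01. STAT3 (ENSBTAG00000021523), the transcription factor that LIF activates, reached 325 and 329 CPM in BCE cells and 333 and 328 CPM in BAE cells after LIF. The groups overlapped, and the log2 fold change was -0.01 with a 95% interval of -0.09 to 0.07 (adjusted p = 0.778, edgeR's quasi-likelihood test). SOCS3 (ENSBTAG00000008441), the feedback inhibitor of the pathway, stood at 23.9 and 22.9 CPM in BCE cells and at 69.7 and 64.6 CPM in BAE cells. SOCS3 was thus 1.52 ± 0.07 lower in BCE cells on the log2 scale (edgeR's adjusted p = 7.2e-18), with no overlap of the groups. SOCS2 (ENSBTAG00000012007), a related inhibitor known for its part in growth hormone signaling, went the other way, with 25 and 27.8 CPM in BCE cells and 3.49 and 4.46 CPM in BAE cells, a log2 fold change of 2.71 ± 0.12. The receptor chain IL4R (ENSBTAG00000001602), which binds interleukin-4, was also higher in BCE cells, at 229 and 220 CPM against 57.7 and 69.3 CPM (log2 fold change 1.82 ± 0.06). OSMR, the receptor chain that pairs with gp130 for oncostatin M, was lower in BCE cells, at 41.8 and 44.0 CPM against 59.4 and 53.0 CPM (log2 fold change -0.39 ± 0.07). IL7R, the interleukin-7 receptor, lay between 25.1 and 27.3 CPM in all 4 libraries, with a log2 interval of -0.16 to 0.15.

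Receptors and ligands of the TNF family differed in both directions. The death receptor FAS (ENSBTAG00000010785) stood at 5.81 and 4.37 CPM in BCE cells and at 36.5 and 38.6 CPM in BAE cells. Its log2 fold change was -2.86 ± 0.11 (edgeR's adjusted p = 9.3e-20), a 7.26-fold lower level in BCE cells. The ligand TNFSF18 was higher in BCE cells, at 9.18 and 8.58 CPM against 2.2 and 1.86 CPM, a log2 fold change of 2.14 ± 0.18. For the TNF receptor TNFRSF1A the difference was 0.13 ± 0.04, and it did not pass the threshold without BAE LIF replicate 1 (adjusted p = 0.0574) or without BCE LIF replicate 1 (adjusted p = 0.141). The lymphotoxin beta receptor gene LTBR had overlapping groups and a log2 interval of -0.11 to 0.07.

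Genes of the acute phase and of innate immunity were as often higher as lower. Of 10 such genes, 4 differed in each direction and 2 did not pass the test, beside 31.7% higher and 32.2% lower over all genes. SBNO2, a transcriptional coregulator induced by STAT3, stood at 106 and 107 CPM in BCE cells and at 266 and 267 CPM in BAE cells, a log2 fold change of -1.33 ± 0.05. The transcription factor CEBPD, a regulator of acute phase genes, was lower in BCE cells by 0.52 on the log2 scale, at 289 and 309 CPM against 420 and 438 CPM. NLRC5, the transactivator of MHC class I genes, was at 45.0 and 43.4 CPM in BCE cells and at 73.6 and 69.9 CPM in BAE cells. In contrast, APOL3 (log2 fold change 1.29 ± 0.08), the lipopolysaccharide coreceptor CD14 (1.17 ± 0.10) and the mitochondrial superoxide dismutase SOD2 (1.13 ± 0.09) were higher in BCE cells. CD14 was the only one of the 11 listed leukocyte markers that could be named. It stood at 28.2 and 26.4 CPM in BCE cells and at 11.3 and 12.9 CPM in BAE cells, and endothelial cells express it too. Whether leukocytes were present was not tested. The metallothionein MT2 was among the 6 named genes with the most counts, at 1678 and 1658 CPM against 1473 and 1539 CPM. Its difference of 0.15 did not pass the threshold when all 8 libraries were fitted together (adjusted p = 0.112), and its reads may be shared with near-identical family members.

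Of 4 named genes of leukocyte recruitment, 1 was higher and 3 were lower in BCE cells. Over all genes tested, 31.7% were higher and 32.2% lower. The chemokine gene CCL2 (ENSBTAG00000037811), which attracts monocytes, stood at 24.8 and 22.3 CPM in BCE cells and at 2.05 and 1.55 CPM in BAE cells. The log2 fold change of CCL2 was 3.73 ± 0.15 (edgeR's adjusted p = 2e-19). The chemokine receptor gene CXCR4 (ENSBTAG00000001060), the receptor for CXCL12 and a gene of arterial and tip cell endothelium, stood at 65.8 and 65.4 CPM in BCE cells and at 259 and 269 CPM in BAE cells, 2.01 ± 0.05 lower on the log2 scale. The adhesion molecule genes SELP, for P-selectin, and ICAM1 were lower in BCE cells by smaller margins, with log2 fold changes of -0.71 ± 0.04 and -0.37 ± 0.05. After LIF, these 4 genes thus differed in both directions, with CCL2 higher in BCE cells and CXCR4, SELP and ICAM1 higher in BAE cells. With vehicle, ICAM1 was higher in BCE cells, by 0.58 on the log2 scale. CXCR4 was the only one of 27 listed arterial and Notch genes that could be identified. SELP was the only one of 15 listed venous and lymphatic genes. Both were higher in BAE cells after LIF, and a single gene is too few to describe either list.

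All 4 named genes of TGF-beta and BMP signaling were higher in BCE cells (31.7% of all genes tested were), with a median log2 fold change of 1.16. LRRC32 (ENSBTAG00000001301), which holds latent TGF-beta at the cell surface, stood at 62.7 and 66.5 CPM in BCE cells and at 8.07 and 8.12 CPM in BAE cells, a log2 fold change of 2.99 ± 0.08. BAMBI, a decoy receptor of the pathway, stood at 9.61 and 10.4 CPM against 4.30 and 4.04 CPM. The BMP target genes ID1 and ID3 were higher in BCE cells by 1.05 ± 0.05 and 0.63 ± 0.07 on the log2 scale. The list fixed for the pathway held 40 genes, and the other members could not be named.

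Among 8 ligands and regulators of vessel growth, 4 were higher and 4 lower in BCE cells, beside 31.7% higher and 32.2% lower over all genes. VEGFC (ENSBTAG00000014737), the growth factor of lymphatic vessels, stood at 115 and 109 CPM in BCE cells and at 373 and 395 CPM in BAE cells. Its log2 fold change was -1.78 ± 0.05 (edgeR's adjusted p = 7.2e-24). PDGFC and DAB2IP, a regulator of VEGF receptor and Ras signaling, were also lower in BCE cells, by 0.69 and 1.17 on the log2 scale, as was the angiogenesis inhibitor THBS2 (log2 fold change -0.46 ± 0.04). Besides STC1, EFNA1, a ligand of Eph receptors, was higher in BCE cells, at 55.0 and 49.5 CPM against 25.9 and 26.4 CPM. RGCC, a gene of choriocapillaris and other capillary endothelium, was higher by 0.33 ± 0.07. MEOX2 and RGCC were the only 2 of 23 listed choriocapillaris and microvascular genes that could be identified, too few to describe the list.

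**Figure D3:**
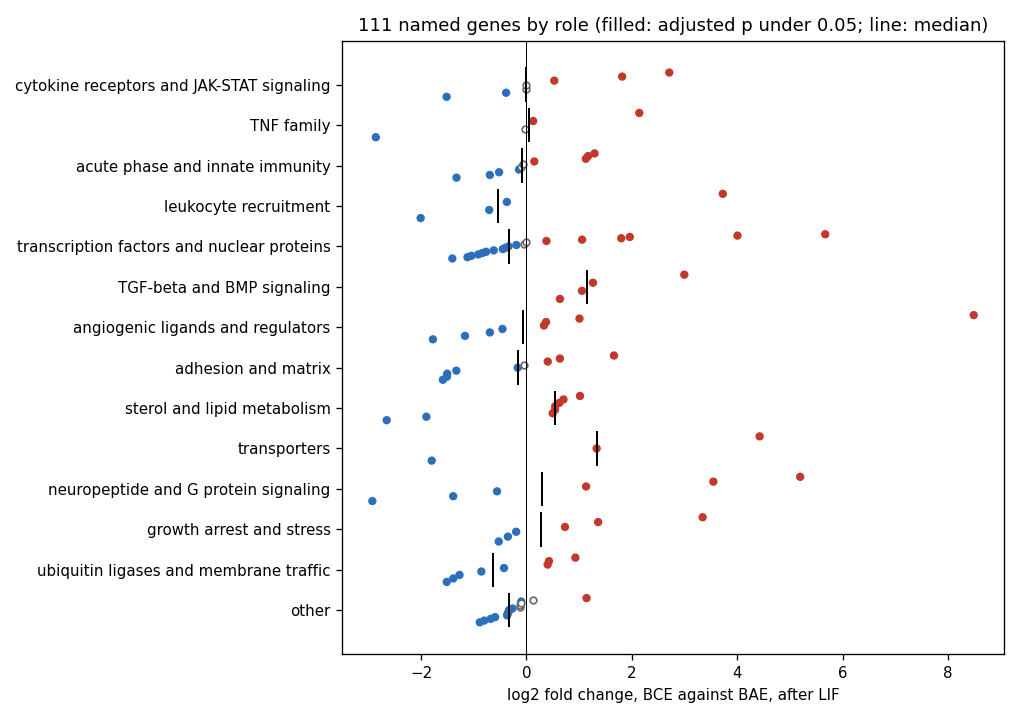
Log2 fold change of BCE against BAE cells after LIF for each of the 111 named genes, sorted into 13 groups by role and a remainder. Filled points had an adjusted p under 0.05, open points did not, and the black line is the median of the group, which was highest for transporters (1.33) and for TGF-beta and BMP signaling (1.16).

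Of 19 transcription factors and other nuclear proteins, 11 were lower in BCE cells, 6 were higher and 2 did not pass the test, beside 32.2% lower and 31.7% higher over all genes. Only 3 of 36 listed immediate early and serum response genes could be identified, and these 3 were lower. JUNB stood at 149 and 137 CPM in BCE cells and at 316 and 307 CPM in BAE cells (log2 fold change -1.12 ± 0.05), and MYC (-0.77 ± 0.04) and FOSL2 (-0.62 ± 0.05) followed. BCL6, a repressor that STAT factors regulate, was at 15.5 CPM in each BCE library and at 32.4 and 31.6 CPM in BAE cells, whereas its relative BCL6B was higher in BCE cells, at 143 and 147 CPM against 38.5 and 44.6 CPM. HIF1A, the oxygen-regulated transcription factor, was at 661 and 651 CPM in BCE cells and at 322 and 310 CPM in BAE cells (log2 fold change 1.06 ± 0.04). With STC1 and NDRG1 (1.36 ± 0.05), HIF1A made up the 3 of 34 listed hypoxia genes that could be identified, and these 3 were higher in BCE cells, beside 31.7% of all genes. The snRNA transcription factor subunit SNAPC1 was higher by 1.96 ± 0.12. The RNA-binding protein gene CELF4 was higher by 4.0 ± 0.25, from 26 summed counts in BAE cells.

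Of 35 listed genes of cholesterol synthesis and its regulation, 5 could be identified, of which 4 were higher and 1 was lower in BCE cells, beside 31.7% higher and 32.2% lower over all genes tested. The synthesis genes HMGCS1 and FDFT1 were higher by 1.02 ± 0.05 and 0.54 ± 0.05 on the log2 scale. INSIG1, a sterol-regulated brake on the pathway, and the lipoprotein receptor VLDLR were higher by 0.62 ± 0.07 and 0.70 ± 0.05. CH25H (ENSBTAG00000011115), which makes 25-hydroxycholesterol, stood at 72.0 and 64.7 CPM in BCE cells and at 432 and 431 CPM in BAE cells, a log2 fold change of -2.65 ± 0.05 (edgeR's adjusted p = 1.9e-27). LPCAT2, which makes platelet-activating factor, was lower in BCE cells as well, at 38 CPM in each library against 141 and 143 CPM. The difference in serum, which supplies cholesterol, ran alongside these genes, and its part was not tested.

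Of 9 adhesion molecules and matrix genes, 5 were lower in BCE cells, 3 were higher and 1 did not pass the test, beside 32.2% lower and 31.7% higher over all genes. Of the integrin subunit gene ITGAV (ENSBTAG00000019929), BCE cells had 328 and 337 CPM and BAE cells 988 and 908 CPM (log2 fold change -1.51 ± 0.04). THSD1 (-1.59 ± 0.05) and CHST2 (-1.50 ± 0.05), a sulfotransferase of selectin ligands, were lower by similar margins. Protocadherins went the other way. PCDH12, a protocadherin of endothelial junctions, stood at 85.6 and 87.2 CPM in BCE cells and at 25.5 and 29.0 CPM in BAE cells (log2 fold change 1.66 ± 0.07), and PCDH18 was higher in BCE cells by 0.63 ± 0.07.

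The 3 named transporters differed widely. SLCO2B1, an importer of organic anions such as steroid sulfates, stood at 45.0 and 52.2 CPM in BCE cells and at 2.53 and 2.02 CPM in BAE cells, a log2 fold change of 4.42 ± 0.12. SLC23A2, which carries vitamin C, was higher in BCE cells by 1.33 ± 0.08. The nucleoside transporter gene SLC29A1 was lower, at 368 and 378 CPM in BCE cells against 1274 and 1319 CPM in BAE cells (log2 fold change -1.80 ± 0.04).

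Among the remaining large differences, the kinase gene PLK2 stood at 160.5 CPM in each BCE library and at 17.3 and 14.6 CPM in BAE cells, a 10.1-fold difference (log2 fold change 3.34 ± 0.07). SYBU, which links vesicles to kinesin motors, stood at 19.3 and 20.3 CPM against 0.716 and 0.388 CPM (5.19 ± 0.20). The adaptor gene APBA1 was at 5.35 and 5.09 CPM in BCE cells and at 42.3 and 37.5 CPM in BAE cells (-2.93 ± 0.11). The secreted peptide gene NTS, for neurotensin, was lower in BCE cells by 1.39 ± 0.06 on the log2 scale. Of the 8 genes of ubiquitin ligases and membrane traffic, 5 were lower and 3 higher in BCE cells, beside 32.2% and 31.7% of all genes. RAB11FIP1 (-1.51 ± 0.05), a partner of recycling endosomes, led the lower ones and the ubiquitin ligase NEDD4L (0.93 ± 0.05) the higher ones. The growth arrest gene GADD45G had only 1.58 to 3.02 CPM in the 4 libraries, and its difference of 0.73 ± 0.26 did not pass the threshold in the DESeq2 test (adjusted p = 0.11) or without BAE LIF replicate 1 (adjusted p = 0.058) or BCE LIF replicate 1 (adjusted p = 0.215).

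A further question was how far the distance between the cell types after LIF was the distance already present without it. The vehicle-treated libraries, which share no library with the LIF-treated ones, gave 7223 calls of 13426 genes tested (53.8%), of which 3520 (26.2%) were higher in BCE cells and 3703 (27.6%) were lower. Of 13108 genes tested in both states, 6206 were called in both, which is 74.0% of the calls after LIF and 87.5% of those with vehicle. The direction was the same for 6147 of them and opposite for 59. The median absolute log2 fold change over these 13108 genes was 0.329 after LIF and 0.317 with vehicle. A test of the difference between the states, an interaction fitted on all 8 libraries, called 502 of 13646 genes (3.68%), with 158 positive (1.16%) and 344 negative (2.52%). Of the 502, the gap between the cell types was smaller after LIF for 140, larger for 212 and of opposite sign for 150. The number called moved with single libraries, from 261 without BAE LIF replicate 1 to 948 without BCE vehicle replicate 1. It was also near the lower end without BCE LIF replicate 2 (272), BAE vehicle replicate 1 (281), BCE LIF replicate 1 (292) and BAE LIF replicate 2 (293).

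Several of the named genes that set the cell types far apart after LIF did so in both states. MEOX2, SYBU, SLCO2B1, CCL2 and PLK2 had log2 fold changes of 5.81, 5.09, 3.96, 3.42 and 3.21 with vehicle, and APBA1, FAS, CH25H and CXCR4 had -3.30, -2.51, -2.37 and -2.01. None of these 9 genes passed the interaction test. Nor did STC1, the largest named difference, at 8.49 after LIF and 7.04 with vehicle. Its difference between the states had a 95% interval of -0.25 to 3.15, since its level in BAE cells was near the limit of 3 counts. For STC1 the test could thus not tell a like gap from a changed one. Other large named differences did pass the interaction test. Among them were SOCS3, whose direction was reversed, and IL4R, SLC29A1, VEGFC, CHST2 and RAB11FIP1, which kept theirs. Of the 111 named genes, 73 were called in both states in the same direction and 11 in both states in opposite directions. A further 15 were called after LIF but not with vehicle, 6 with vehicle but not after LIF and 6 in neither state. Over the 13108 genes tested in both states, 6147 were called in the same direction and 59 in opposite directions. Another 2179 were called after LIF only and 884 with vehicle only. Of the 15, 10 passed the interaction test, as did 4 of the 6 called with vehicle only. Among all genes tested in both states the share was far smaller. There, 112 of 2179 genes called after LIF only passed it, and 57 of 884 called with vehicle only. The median log2 fold change of the 111 named genes was 0.287 with vehicle, where 56 were higher in BCE cells and 34 lower. Over all genes tested with vehicle, 26.2% were higher and 27.6% lower. The interaction was called for 51 of the 111 (against 3.68% of all genes tested), 45 negative, that is, shifted towards BAE cells after LIF, and 6 positive. The 111 genes had been chosen for their response to LIF, so this share was set in part by the choice.

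**Figure D4:**
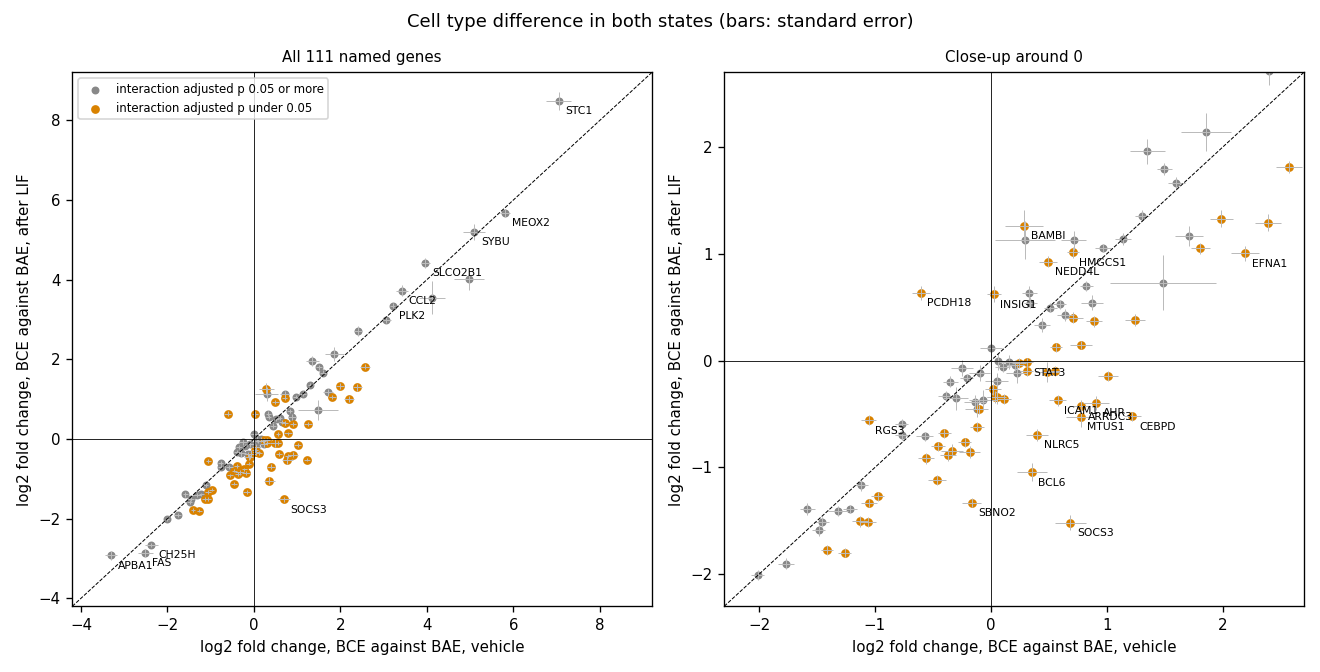
Log2 fold change of BCE against BAE cells after LIF (vertical axis) against that with vehicle (horizontal axis) for the 111 named genes, with standard errors as bars, at full range (left) and around 0 (right). Orange points had an interaction with adjusted p under 0.05, and 45 of these 51 lie below the dashed line of equal difference.

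The order of the cell types was reversed for the 11 named genes called in both states with opposite sign. SOCS3 stood at 10.5 and 9.79 CPM in vehicle-treated BCE cells and at 6.49 and 6.05 CPM in vehicle-treated BAE cells, so BCE cells were higher by 0.69 on the log2 scale before LIF and lower by 1.52 after it. The difference between the states was -2.21 ± 0.13 (edgeR's quasi-likelihood test, adjusted p = 1.1e-07), and in each state the groups did not overlap. CEBPD moved from 84.7 and 88.0 CPM in BCE cells against 38.6 and 35.2 CPM in BAE cells with vehicle to the BAE excess after LIF, a difference between the states of -1.74 ± 0.08. BCL6 (-1.40 ± 0.14), the aryl hydrocarbon receptor gene AHR (-1.31 ± 0.13), MTUS1 (-1.30 ± 0.15), the arrestin family gene ARRDC3 (-1.21 ± 0.10), NLRC5 (-1.10 ± 0.10) and ICAM1 (-0.95 ± 0.08) went the same way. Each of these 6 genes was higher in BCE cells with vehicle and higher in BAE cells after LIF. The vehicle side was smallest for BCL6, at 9.9 and 9.7 CPM in BCE cells against 7.9 and 7.3 CPM in BAE cells. Its log2 fold change there was 0.35, with an interval of 0.10 to 0.61 (edgeR's adjusted p = 0.036). The vehicle side of the reversals was not recomputed in the alternatives. PCDH18 ran the opposite course, at 36.5 and 35.3 CPM in BCE cells against 52.8 and 56.3 CPM in BAE cells with vehicle and at 57.6 and 54.1 CPM against 37.4 and 34.9 CPM after LIF, a difference between the states of 1.23 ± 0.10.

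**Figure D5:**
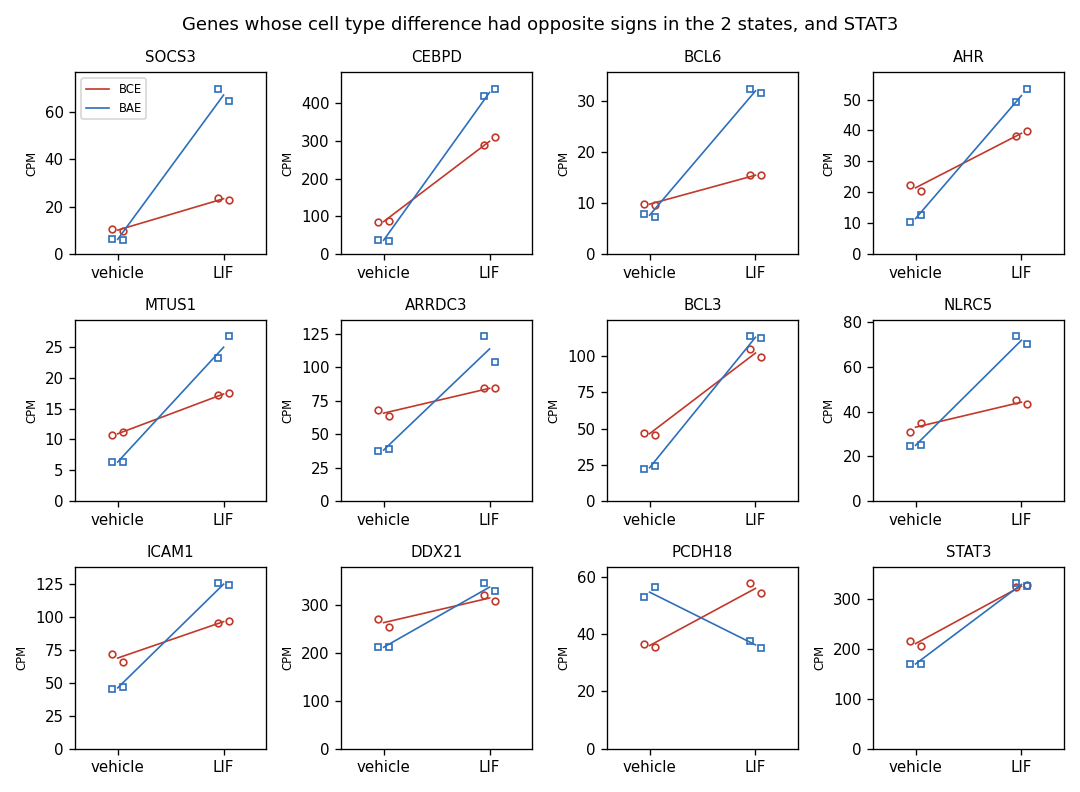
CPM (vertical axes, starting at 0) with vehicle and after LIF in each library of BCE cells (red circles) and BAE cells (blue squares), with lines through the group means, for the 11 named genes called in both states with opposite sign and for STAT3. The lines cross for the 11 genes, and for STAT3 they meet after LIF.

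The other reversals, BCL3 and DDX21, rested on small differences after LIF. BCL3, an atypical inhibitor of NF-kappaB, was lower in BCE cells by 0.14, which did not pass the threshold with upper-quartile scaling (adjusted p = 0.0583), in the DESeq2 test (adjusted p = 0.0503) or without BCE LIF replicate 2 (adjusted p = 0.145). The helicase gene DDX21 (-0.10 ± 0.04, edgeR's adjusted p = 0.043) lost its call in several alternatives, among them the DESeq2 test (adjusted p = 0.0786) and the fits without BAE LIF replicate 1 (0.225), BCE LIF replicate 1 (0.0524) or BCE LIF replicate 2 (0.295). STAT3 itself was called with vehicle only, at 216 and 206 CPM in BCE cells against 169 and 171 CPM in BAE cells (log2 fold change 0.31), and the difference between the states was -0.33 ± 0.06 (edgeR's adjusted p = 0.0075). SBNO2 was called after LIF but not with vehicle, with overlapping levels of 53.5 and 60.6 CPM in BCE cells and 60.0 and 67.5 CPM in BAE cells with vehicle and the 1.33 lower level in BCE cells after LIF. EFNA1 kept its direction, but its gap was smaller after LIF by 1.19 ± 0.14.

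Among named genes with the same direction in both states, 26 passed the interaction test. The gap was smaller after LIF for 11 of them, including ID1, APOL3, IL4R and EFNA1, and larger for 15, including VEGFC, SLC29A1, JUNB, MYC and HMGCS1. JUNB, for example, was lower in BCE cells by 0.46 with vehicle and by 1.12 after LIF. INSIG1 had 79.0 and 80.9 CPM in BCE cells and 78.7 and 78.0 CPM in BAE cells with vehicle, and it was higher in BCE cells only after LIF, with a difference between the states of 0.60 ± 0.11. BAMBI (0.97 ± 0.21), NEDD4L (0.43) and HMGCS1 (0.31) were positive too. Their calls were lost when certain libraries were left out, with adjusted p of 0.103 for BAMBI, 0.085 for NEDD4L and 0.124 for HMGCS1 without BAE vehicle replicate 1. Of the 30 identified genes of a list of genes raised by LIF, 10 were higher and 19 lower in BCE cells after LIF and 1 did not pass the test, beside 31.7% higher and 32.2% lower over all genes, with a median of -0.49 after LIF and 0.33 with vehicle. That list was drawn up with the LIF results of these libraries known, and its counts are not independent evidence.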

How the data were processed

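RNA from LIF- or vehicle-treated BCE and BAE cells was sequenced as paired-end reads. Per the labels, the authors' processing notes name TopHat2 (version 2.0.12), Bowtie2 (2.2.3), HTSeq (0.6.1) and DESeq (1.18.0). The authors deposited raw counts per gene without normalization. Whether strand was used and how multi-mapping reads were counted is not given in the sources used here, so genes with near-identical copies or overlapping neighbours are uncertain. A second deposited table holds the authors' log2 fold changes, group means and p-values for LIF in BCE cells and was used only for gene names, as was a supplementary table of the paper. The table deposited for BAE cells holds the same bytes and was not used. Symbols come from protein matches, partly in other species. Sequences and coordinates are not reported here.

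For the tests, edgeR (version 4.0.16 in R 4.3.3) was run on the deposited counts after filterByExpr (minimum count 10, minimum total count 15) and TMM scaling. P-values of its quasi-likelihood test were adjusted by Benjamini and Hochberg over all genes tested, and 0.05 was the threshold. The comparisons after LIF and with vehicle were each fitted on their 4 libraries, and the interaction on all 8. Standard errors were derived from the log2 fold change and the F statistic, and intervals are 1.96 standard errors to each side. CPM used TMM-scaled totals of the 8 libraries, with which 3 counts correspond to 0.116 to 0.156 CPM in the LIF-treated libraries. Counts of the 2 libraries of a group differed beyond sampling noise (chi-square per degree of freedom 2.64 and 4.37). On simulated counts with 200 changed genes, the comparison after LIF recovered 84.5% at a log2 fold change of 0.5 and 99% at 1. The interaction recovered 50.5% and 97%. False calls numbered 2 and 12 after LIF and 5 and 9 in the interaction. The simulation gave every gene the same spread and changed only well-counted genes, far fewer than were called here. Its rates therefore do not measure the power of the comparisons on the real counts. Alternatives were DESeq2's (version 1.42.0) size factors and test, upper-quartile factors, other filters, a replicate block, a joint fit of the 8 libraries and leaving out libraries in turn.

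The members, lists and tests were chosen with earlier results of these data known, and the 13 groups by role were written once the 111 names were known. Of 779 listed symbols, 51 could be paired with an identifier. Named were the 12 largest differences in each direction with non-overlapping groups and at least 10 CPM, the 2 largest in each direction of each list and further members whose role mattered, the 8 largest interactions in each direction, up to 8 opposite differences and the 6 named genes with the most counts. Other genes, among them BCL3, DDX21 and the remaining members of each group by role, were named after their values were seen, as were the 4 identifiers without a symbol. Some genes of the rule are not reported here.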

Additional observations from a re-analysis of the deposited data

Results flagged for a closer look

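The difference between BCE and BAE cells was another one after LIF than with vehicle for 502 of 13646 genes by the test of that difference itself. Among the named genes, the difference between the states was positive, shifted towards BCE cells, for PCDH18 (1.23), BAMBI (0.97), INSIG1 (0.60), RGS3 (0.49), NEDD4L (0.43) and HMGCS1 (0.31). For RGS3 this was a gap that shrank, from 1.05 lower in BCE cells to 0.56 lower. It was negative, shifted towards BAE cells, for SOCS3 (-2.21), CEBPD (-1.74), BCL6 (-1.40), AHR (-1.31), MTUS1 (-1.30), ARRDC3 (-1.21), EFNA1 (-1.19), SBNO2 (-1.17), NLRC5 (-1.10) and ICAM1 (-0.95). All values are on the log2 scale and come from edgeR's interaction on all 8 libraries, with 4 libraries in each state.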

How the results depend on the processing

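Serum and cell type could not be separated. In the simplified simulation, 0.5 on the log2 scale was recovered less often in interactions (50.5%) than in the comparison after LIF (84.5%). No alternative turned the direction of a named gene called after LIF, or of the 16 named genes whose interaction was recomputed. Single genes were not recomputed for the comparison with vehicle. The number of genes called after LIF was 8450 with DESeq2 size factors, 8500 with upper-quartile factors, 6832 in the DESeq2 test and 7956 with all 8 libraries in one fit, and upper-quartile factors moved the share of calls higher in BCE cells from 49.6% to 53.9%. The same-numbered libraries did not deviate together (correlation -0.00883 after LIF and -0.0531 with vehicle), so the numbers of the sample titles, which differ from those in the count table's column names, were not taken to pair them. A replicate block gave 8452 calls after LIF, 7049 with vehicle and 521 in the interaction. The count over 2-fold was 1608 with at least 10 counts in every library, since genes silent in a cell type then drop out. Without a filter the interaction had 889 calls (322 positive, 567 negative). Leaving out each library in turn, which leaves an arm with 1 library that is assumed to vary like the others, gave 7376 to 8020 calls after LIF (3588 to 3939 higher, 3788 to 4096 lower), 2383 to 2551 over 2-fold, 5454 to 7292 with vehicle (2552 to 3542 higher, 2902 to 3789 lower) and 261 to 948 in the interaction (55 to 301 positive, 194 to 647 negative). Over all genes called after LIF, 1 changed sign while still called, without BCE LIF replicate 2. Among named genes after LIF, signs turned only for those without a call, with upper-quartile factors for IL7R (0.0302), LTBR (0.0143), STAT3 (0.0232) and ZNF281 (0.0272). They also turned as libraries were left out in turn, for IL7R (-0.067 to 0.059, with 7e-04 without BCE LIF replicate 1), ZNF281 (-0.0494 to 0.0309, with 0.0278 without BCE LIF replicate 2) and TAP2 (-0.165 to 0.032). Small differences of PCGF6, NUAK2 and TP53BP2 also lost their calls in some alternatives, and TRIM25 gained one without BAE LIF replicate 2 (adjusted p = 0.0431 by edgeR). The cause was not tested.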
